A study of Homo sapiens with 8 samples.

Results

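Open chromatin was examined around 7 genes that encode transcription factors of the epithelial to mesenchymal transition: SNAI1, SNAI2, TWIST1, TWIST2, ZEB1, ZEB2 and PRRX1. Peaks were taken from each of 8 peak lists where they lay in the gene body or within 50 kb of either end of it, in the hg19 build. These 7 windows held 334 of the 466883 peaks in the lists. Overlapping peaks were merged over the libraries, and a merged region with peaks from at least 2 libraries was called a site, which gave 55 of 75501 sites and left 15 peaks that were found in 1 library alone. Within each window the sites are numbered by their position on the chromosome.

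SNAI1 lies on the plus strand at chr20:48599517-48605423 and SNAI2 on the minus strand at chr8:49830157-49834299. TWIST1 lies on the minus strand at chr7:19060614-19157259 and TWIST2 on the plus strand at chr2:239756673-239832230. ZEB1 lies on the plus strand at chr10:31607424-31818742, ZEB2 on the minus strand at chr2:145121931-145278624 and PRRX1 on the plus strand at chr1:170631869-170708562. RNF114 shares the window of SNAI1, HDAC9 and FERD3L that of TWIST1, and GTDC1 that of ZEB2, so a peak in those windows may belong to either gene.

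The peaks came from ATAC-seq, a sequencing assay of accessible chromatin in which a transposase inserts sequencing adapters into open DNA. LX-2, a human line derived from hepatic stellate cells and immortalised, of wild type genotype, was seeded on hydrogels with a stiffness of about 2 kPa (soft) or 40 kPa (stiff) and harvested on day 2 (D2) or day 4 (D4). Each of these 4 groups of matrix and day had 2 replicate libraries made from 100000 cells, and all libraries came from this 1 cell line. The study's methods call the sequencing replicates biological, but the labels do not say whether they were separate cultures, so the p-values below measure only the spread between these libraries.

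SNAI1 and SNAI2 are zinc finger repressors that bind the E-box CACCTG. TWIST1 and TWIST2 are basic helix-loop-helix factors that pair with E-proteins on the wider E-box CANNTG. ZEB1 and ZEB2 carry clusters of zinc fingers, repress epithelial genes such as the cadherin gene CDH1, and are themselves held down by microRNAs of the miR-200 family. PRRX1 is a homeobox factor of embryonic and wound mesenchyme. Hepatic stellate cells are mesenchymal cells of the liver that turn into matrix-secreting myofibroblasts in fibrosis, and factors of this group are known to be active in mesenchymal cells as well as in epithelial cells that lose their character.

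Depth, estimated from the lists as fragments per kb of genome, was 0.78 in D2 soft replicate 1 and 2.08 to 3.15 in the other 7 libraries. The list of D2 soft replicate 1 held 29789 peaks, against 55754 to 72840 in the others and the part of depth in its missing peaks was not tested. Of 14 stellate and mesenchymal marker genes, 5 had a promoter peak in all 8 libraries, 8 in some and 1 (DES) in none. Of the hepatocyte markers, ALB, APOA1 and HNF4A had no promoter peak in any library, APOB and SERPINA1 had one in 1 library each, and TTR and CYP3A4 in 2 each. Of 6 leukocyte markers, CD68 had a promoter peak in all 8 libraries with a mean percentile of 80.8, and the other 5 had none in any library. Of the 4 endothelial markers found in the annotation, 3 had one in some libraries and 1 in none. Among them KDR had one in 7 libraries, with a mean percentile of 64.3. Of 6 cholangiocyte and epithelial markers, KRT7 had a promoter peak in all 8 libraries with a mean percentile of 75.7, 3 had one in some and 2 in none.

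The strength of a peak is given as fold enrichment, the ratio of the summit's fragments to the background that was estimated near it, and as its percentile among all peaks of that library, where 100 is the peak with the highest fold enrichment. Fold enrichment moves with the background of each library and a percentile with the length of the list, since the same rank stands at a lower percentile in a shorter list. The percentiles of D2 soft replicate 1, whose list is shortest, are therefore not on the same footing as the others. The same holds to a lesser degree among the other lists, which held 55754 to 72840 peaks. The following sequences, read from the hg19 genome on the plus strand within 100 bp of the summit, are shown because the results below turn on them: the strong distal sites of TWIST2, ZEB1 and PRRX1, the TWIST1 site with opposite differences on the 2 days, and the ZEB2 site found on the stiff matrix only. Capitals mark matches, on either strand, to the motifs searched. These were CACCTG and CANNTG (E-boxes), TGANTCA (bound by AP-1 factors), GGAATG (bound by TEAD factors), GGGCGG (the GC box) and TAATTA (bound by homeobox factors), of which CANNTG and TGANTCA had matches in the sequences shown.
TWIST1 site 1, chr7:19033718-19033918: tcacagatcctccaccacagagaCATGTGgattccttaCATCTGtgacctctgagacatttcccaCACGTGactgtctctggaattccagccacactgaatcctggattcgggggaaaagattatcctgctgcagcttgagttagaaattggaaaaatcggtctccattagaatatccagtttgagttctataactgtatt
TWIST2 site 4, chr2:239772951-239773151: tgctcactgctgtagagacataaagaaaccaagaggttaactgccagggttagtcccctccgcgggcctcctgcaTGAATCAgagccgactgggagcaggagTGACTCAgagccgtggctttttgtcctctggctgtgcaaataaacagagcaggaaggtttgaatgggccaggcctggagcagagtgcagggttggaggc
TWIST2 site 7, chr2:239870247-239870447: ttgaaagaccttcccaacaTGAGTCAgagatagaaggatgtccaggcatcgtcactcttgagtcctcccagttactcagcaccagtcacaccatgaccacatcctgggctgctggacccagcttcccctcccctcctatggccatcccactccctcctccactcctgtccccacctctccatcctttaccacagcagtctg
ZEB1 site 4, chr10:31715396-31715596: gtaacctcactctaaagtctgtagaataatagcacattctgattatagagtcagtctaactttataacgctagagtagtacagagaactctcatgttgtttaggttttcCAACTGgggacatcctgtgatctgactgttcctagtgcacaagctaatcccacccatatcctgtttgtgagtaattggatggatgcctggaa
ZEB2 site 13, chr2:145271376-145271576: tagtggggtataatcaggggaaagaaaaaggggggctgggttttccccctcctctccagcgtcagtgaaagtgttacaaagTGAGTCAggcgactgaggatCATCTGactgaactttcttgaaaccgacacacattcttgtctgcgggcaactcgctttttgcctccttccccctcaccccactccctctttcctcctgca
PRRX1 site 4, chr1:170677282-170677482: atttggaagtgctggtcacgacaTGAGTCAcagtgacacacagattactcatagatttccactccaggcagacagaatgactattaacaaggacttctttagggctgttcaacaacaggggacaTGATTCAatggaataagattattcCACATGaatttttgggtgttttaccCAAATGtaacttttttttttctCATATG

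The promoters of the 7 genes, defined as 1 kb on either side of any annotated transcription start, had peaks in at least 4 libraries each, but weak ones for most of the group. SNAI2, TWIST1 and TWIST2 had a promoter peak in all 8 libraries, SNAI1 and ZEB1 in 7, ZEB2 in 6 and PRRX1 in 4. Thus 3 of 7 genes had a promoter peak in every library, and of 20163 protein-coding genes 47.5% did. D2 soft replicate 1 lacked a promoter peak at SNAI1, ZEB1, ZEB2 and PRRX1, and without this library 5 of the 7 genes had one in every library. The median over the 7 genes of the mean percentile of the best promoter peak was 25.2, against 61.7 over all protein-coding genes with a promoter peak.

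SNAI2 had the strongest promoter of the group. Its site 2 lay at chr8:49832452-49834693, across the start of the gene, with percentiles of 63.2 and 44.4 on soft and 34.2 and 58.7 on stiff on day 2, and 68.7 and 32.4 on soft and 46.9 and 59.7 on stiff on day 4. Replicates of 1 group lay far apart, and soft and stiff libraries overlapped, with means of 52.2 and 49.9 (n = 4 each). TWIST1 followed with a mean of 32.7 ± 24.8 (SD, n = 8) for the better of its promoter sites. Site 6, at the main start (chr7:19156886-19157644), had percentiles of 72.3 and 6.41 on soft and 60.2 and 8.32 on stiff on day 2. On day 4 it had 29.4 and 44.5 on stiff, 21.8 in D4 soft replicate 2 and no peak in D4 soft replicate 1. The day 2 replicates of each matrix were farther apart than the matrices were. Site 5, 0.991 kb into TWIST1, had peaks in 6 libraries, at 11.4 in D2 soft replicate 2, 17.3 in D2 stiff replicate 1, 4.6 and 30.7 on soft on day 4 and 20.1 and 26.7 on stiff on day 4.

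SNAI1, TWIST2, ZEB2 and ZEB1 came next, with mean promoter percentiles of 26.4 ± 17.2 (SD, n = 7), 25.2 ± 15.9 (SD, n = 8), 24.9 ± 15.3 (SD, n = 6) and 23.4 ± 9.41 (SD, n = 7). The promoter site of SNAI1, site 6, had a fold enrichment of 5.15 in D2 soft replicate 2 and of 3.21 and 7.5 on the stiff matrix of day 2. On day 4 it had 4.14 and 5.2 on soft and 6.58 and 7.34 on stiff, with 5 to 23 fragments at the summit. On day 4 both stiff libraries, at percentiles of 36.9 and 45.0, stood above both soft libraries, at 10.3 and 28.5. By rank, counted from the strongest peak, D4 stiff replicate 1, at 41554, stood below D4 soft replicate 2, at 40310. On day 2 the stiff libraries, at percentiles of 0.622 and 44.6, lay on either side of the 1 soft library with a peak, at 18.8. The promoter site of TWIST2, site 3, ranged from percentile 5.16 to 45.0 over the 8 libraries, and its soft and stiff libraries overlapped.

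ZEB1 had a promoter site at chr10:31607266-31607976 (site 1), next to the start of the antisense RNA ZEB1-AS1, with percentiles of 8.49 to 34.4 in 7 libraries. A second, weaker site 345 bp into the gene (site 2) had a peak in D2 soft replicate 2 and in both D4 stiff libraries, with percentiles of 14.3, 2.06 and 15.4. PRRX1 had the weakest promoter, with a single site (site 3) at percentiles of 18.6 in D2 soft replicate 2, 4.7 in D4 soft replicate 1, and 1.79 and 5.53 in D4 stiff, each with 5 to 7 fragments at the summit. In the order SNAI2, TWIST1, SNAI1, TWIST2, ZEB2, ZEB1 and PRRX1, the ranges over libraries of neighbouring genes overlapped in every case. SNAI2, whose lowest value was 32.4, did not overlap PRRX1, whose highest was 18.6.

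**Figure D1:**
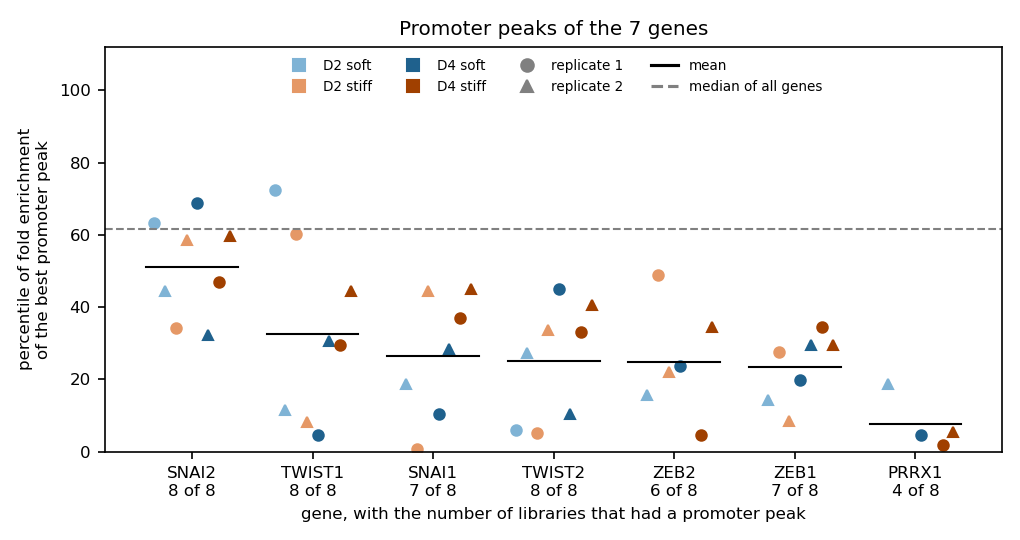
Percentile of fold enrichment of the best promoter peak (vertical axis) for the 7 genes, one symbol per library, with the mean over libraries as a line and the median over all protein-coding genes, 61.7, as a dashed line. Libraries without a promoter peak have no symbol, and all values of SNAI1, TWIST2, ZEB1, ZEB2 and PRRX1 lie below the dashed line.

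Away from the promoters the picture differed between the genes. Of the 55 sites, 13 lay at a promoter of the gene itself, 3 at the promoter of a neighbour (RNF114 for SNAI1, and GTDC1 at 2 sites for ZEB2) and 39 were distal. The distal sites had a median percentile of 31.3, against 41.4 for all distal sites of the series, and ranged from 13.1 to 92.2. Of the distal sites 28.2% had a peak in every library, and of all distal sites 25.3% did.

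TWIST2 held the strongest sites of the group. Site 7, an intergenic region 114 kb past the start at chr2:239869644-239871044, had percentiles of 92.1 and 98.0 on soft and 92.4 and 88.8 on stiff on day 2, and 96.9 and 93.3 on soft and 83.8 and 92.5 on stiff on day 4. Site 4, in an intron 16.3 kb past the start at chr2:239772523-239773578, had 97.9 and 90.7 on soft and 91.1 and 95.5 on stiff on day 2, and 84.0 and 99.4 on soft and 88.3 and 85.6 on stiff on day 4. Both sites stood at percentile 83.8 or higher in every library, while the promoter of the same gene never passed 45.0. A further 3 distal sites of TWIST2 (sites 2, 5 and 6) had a peak in every library as well, with mean percentiles of 60.0, 82.0 and 70.5. In all, 6 of the 8 TWIST2 sites had a peak in every library, the highest number among the 7 genes. Sites 2, 4, 5 and 6 were singled out after their values were seen.

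SNAI1 had the densest window, with 12 sites in 105.9 kb, or 11.3 sites per 100 kb. Among protein-coding genes, whose median was 3.91 and where tied genes share a middle rank, this stood at percentile 99.0. By number of sites SNAI1 stood at percentile 91.3. The window also holds RNF114, in whose body sites 1, 2 and 3 lay. Site 12, 51.1 kb past the start at chr20:48650261-48651556, was the strongest distal site with a peak in every library, at 47.0 and 81.1 on soft and 89.7 and 84.6 on stiff on day 2, and 65.2 and 51.9 on soft and 61.1 and 71.8 on stiff on day 4. On day 2 both stiff libraries were above both soft libraries, and on day 4 the matrices overlapped. Sites 4, 7 and 8 had peaks in all libraries other than D2 soft replicate 1, with mean percentiles of 72.5, 60.2 and 72.8, and were singled out after their values were seen.

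SNAI2 had only 3 sites, fewer than any other member, but 2 of them were in every library. Its distal site 1, 18.5 kb past the start at chr8:49814906-49816129, ranged from percentile 48.7 to 83.3 with a mean of 64.1 (n = 8). ZEB1, with 5 sites in 311.3 kb, had its strongest peak deep in an intron, 107 kb past the start (site 4, chr10:31715058-31716503). This site had no peak in D2 soft replicate 1 and a percentile of 64.9 in D2 soft replicate 2 and of 35.5 and 66.7 on stiff. On day 4 it had 75.6 and 78.8 on soft and 98.4 and 82.9 on stiff. All 4 D4 libraries were above all D2 libraries that had a peak, and by percentile both D4 stiff libraries were above both D4 soft libraries. By rank D4 stiff replicate 2, at 12432, stood below D4 soft replicate 2, at 11951. Because the peak was missing from 1 library, this site was not among those fitted on ranks.

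PRRX1 had its strongest site in an intron 44.1 kb past the main start (site 4, chr1:170677157-170677773). Its percentiles were 83.6 and 80.1 on soft and 52.4 and 64.3 on stiff on day 2, and 89.4 and 71.2 on soft and 61.5 and 67.0 on stiff on day 4. At this site both soft libraries stood above both stiff libraries on each day. TWIST1 had no strong distal site. The TWIST1 body is long in the annotation because it includes a long transcript variant, so its window reaches into the intron of HDAC9 that holds site 1, the only TWIST1 site in every library, at a mean percentile of 26.4.

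**Figure D2:**
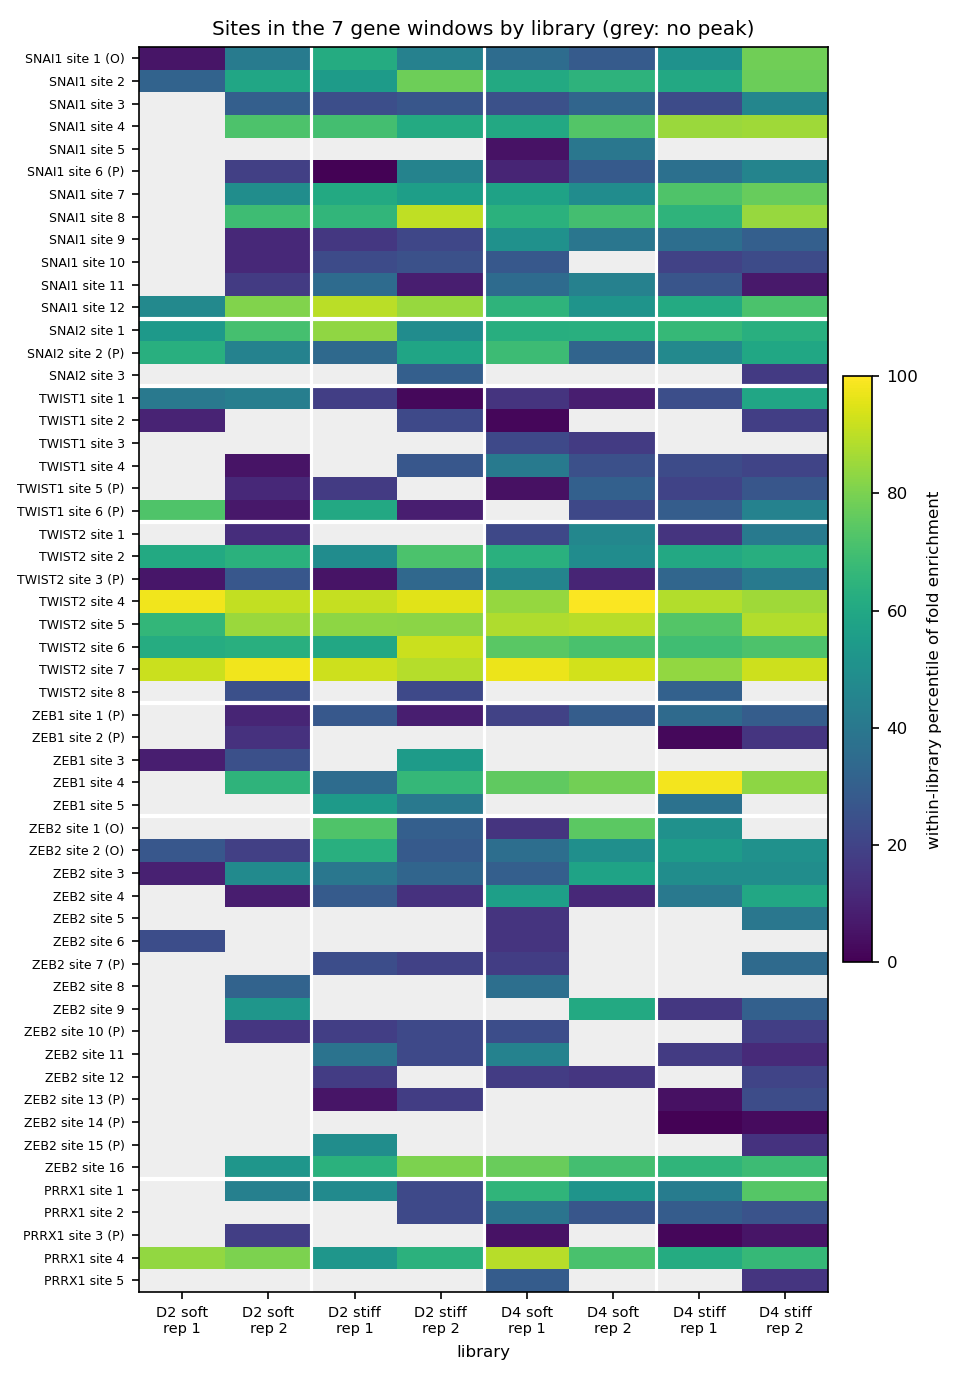
Percentile of fold enrichment at the 55 sites (down the side, in order of position within each gene) in the 8 libraries (across), with grey where a library had no peak. (P) marks a promoter of the gene itself and (O) that of another gene. TWIST2 sites 4 and 7 are the strongest, at 83.8 or more in every library, and D2 soft replicate 1 lacks most SNAI1 and ZEB2 sites.

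ZEB2 had 16 sites in a window of 256.7 kb. Among protein-coding genes it stood at percentile 96.8 by number of sites and at 78.7 by sites per 100 kb (6.23). Most of its sites were weak and present in part of the libraries. Only 2 of the 16 had a peak in every library: site 2, at a GTDC1 promoter, and site 3 (chr2:145115422-145117209), past the 3′ end, with percentiles of 9.06 and 47.7 on soft and 39.7 and 32.5 on stiff on day 2, and 30.1 and 57.9 on soft and 49.2 and 49.2 on stiff on day 4. Site 16, 33.4 kb upstream of the main start, was the strongest, with a mean percentile of 68.2 in 7 libraries, and was singled out after its values were seen. ZEB2 is annotated with 50 transcripts, whose starts lie along much of the gene, and its 5 promoter sites include sites 7 and 10, which lay 65.0 and 38.2 kb past the main start. Site 7 had a peak in 4 libraries and site 10 in 5, at percentiles of 15.8 to 34.6.

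At the 5′ end of ZEB2, sites 13, 14 and 15 had peaks in stiff libraries alone. Site 13, at chr2:145271240-145271653 in an exon 6.21 kb past the main start, had a peak in all 4 stiff libraries and in no soft library. The day 2 stiff libraries had fold enrichments of 4.01 and 5.25 and the day 4 stiff libraries 3.8 and 5.43, with 10, 19, 23 and 23 fragments at the summit and percentiles of 5.65, 18.1, 4.55 and 23.2. Site 14, 2.48 kb past the main start and also at the start of ZEB2-AS1, had a peak in both D4 stiff libraries alone, at percentiles of 0.549 and 2.89. Site 15, at the main start itself, had a peak in D2 stiff replicate 1 at percentile 48.9 and in D4 stiff replicate 2 at 14.6. On each day both stiff libraries were deeper than both soft libraries, and in lists cut to the same length of 29789 peaks none of these 3 sites had a peak in any library. The part of depth in this difference was not tested. The opposite was seen at ZEB2 sites 6 and 8, which had peaks in 2 soft libraries each and in no stiff library. Site 6 had 5 and 6 fragments at the summit, at percentiles of 23.8 and 15.2. Site 8 had 16 and 16 fragments, at percentiles of 32.0 and 36.5. Over the 55 sites, 5 (9.09%) had peaks in stiff libraries alone, against 9.42% of all sites, and 4 (7.27%) in soft libraries alone, against 1.52%. The soft-alone sites were ZEB2 sites 6 and 8, SNAI1 site 5 and TWIST1 site 3. In lists of the same length none of the stiff-alone or soft-alone sites had a peak in any library.

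**Figure D3:**
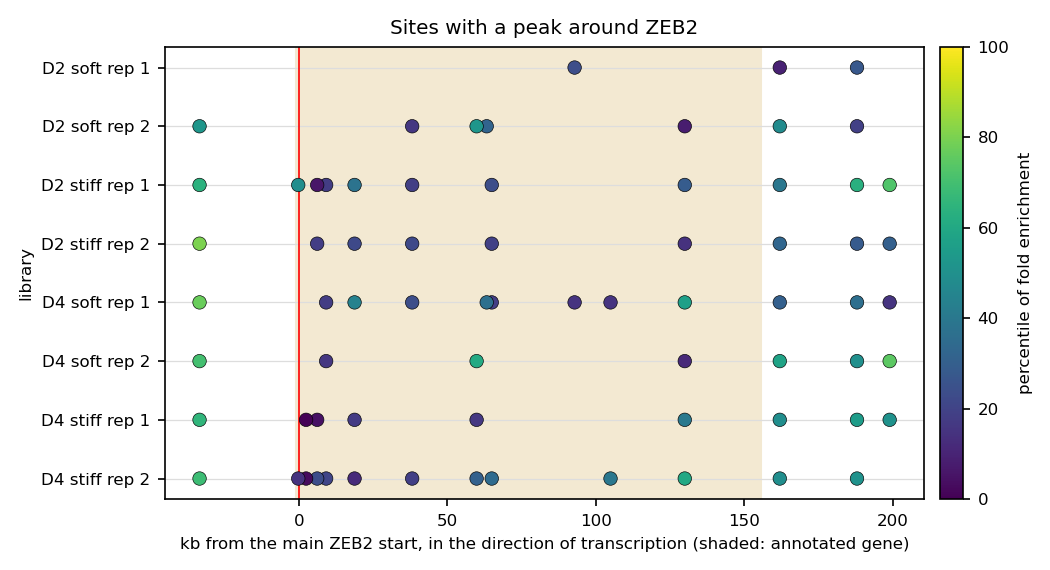
Sites with a peak around ZEB2 in each library by distance in kb from the main start, marked by the red line, in the direction of transcription (horizontal axis), coloured by percentile of fold enrichment. Near the start, peaks at sites 13, 14 and 15 appear in stiff libraries alone, and site 16 to the left of the start appears in every library other than D2 soft replicate 1.

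The number of peaks per library in the 7 windows was then compared between matrices. On day 2 the windows held 19 and 40 peaks on soft and 41 and 47 on stiff, and on day 4 they held 49 and 42 on soft and 45 and 51 on stiff. Stiff libraries had 46.0 ± 4.16 and soft libraries 37.5 ± 12.9 (SD, n = 4 each), a difference of 8.5 that was smaller than the spread among the soft libraries. Without D2 soft replicate 1 the difference was 2.33, and in lists of the same length it turned to -1.5. Per 10000 peaks of the list the windows held 7.18 ± 0.585 in soft and 7.03 ± 0.242 in stiff libraries (SD, n = 4 each), and these values overlapped.

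By gene, the number of peaks overlapped between matrices for all 7. ZEB2 had 3, 8, 13 and 7 peaks in the soft libraries and 11, 11, 10 and 15 in the stiff libraries, with means of 7.75 ± 4.11 and 11.8 ± 2.22 (SD, n = 4 each), and the difference of 4.0 was 2.42 without D2 soft replicate 1. SNAI1 had 3 peaks in D2 soft replicate 1 and 11 or 12 in every other library, so that its difference of 2.0 between matrices came to -0.0833 without that library. TWIST1, TWIST2 and PRRX1 differed by 0.25 peaks each, ZEB1 by 0.75 and SNAI2 by 1.0. Without D2 soft replicate 1 these differences were -0.25, -0.167, -0.5, 0.0 and 0.917 in the same order, so that the sign turned for TWIST1, TWIST2 and PRRX1.

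**Figure D4:**
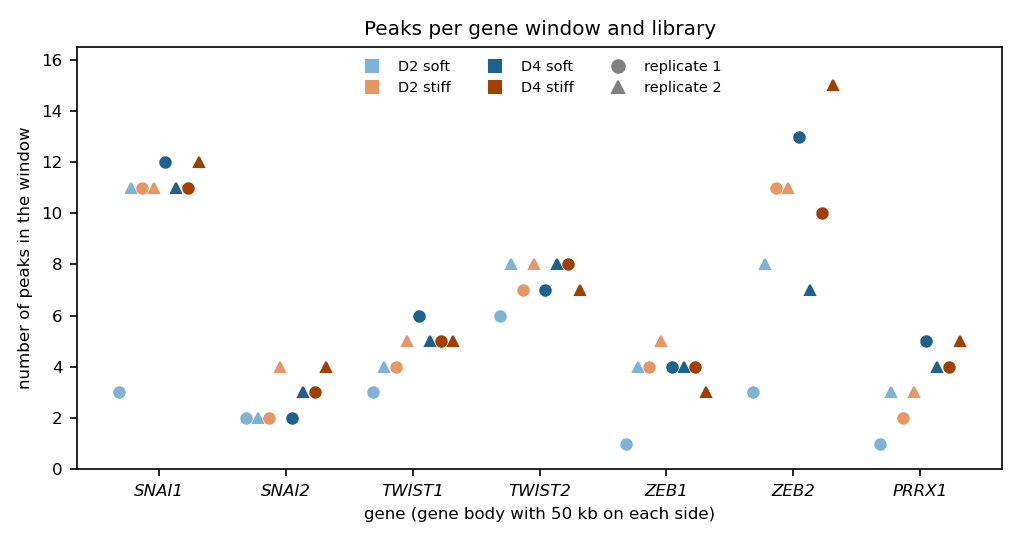
Number of peaks (vertical axis) in the window of each gene, one symbol per library, coloured by group. D2 soft replicate 1 has the lowest count, alone or tied, for all 7 genes, and ZEB2 has the widest spread, from 3 to 15.

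To ask which sites were open in one group alone, sites were counted that had a peak in both libraries of one group and neither library of another. An exact permutation test of 2 against 2 cannot reach 0.05, so these counts have no p-value and are set beside the share of all 75501 sites. On day 2, 5 of the 55 sites (9.09%) were stiff-only, against 7.45% of all sites, and 0 were soft-only, against 0.391%. The 5 sites were ZEB1 site 5, in an exon near the 3′ end of the gene, and ZEB2 sites 1, 7, 11 and 13. ZEB1 site 5 had percentiles of 54.4 and 40.6 in D2 stiff, and ZEB2 site 1, at a GTDC1 promoter, 72.4 and 30.4.

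On day 4, 3 sites (5.45%) were stiff-only, against 6.72%, and 2 (3.64%) were soft-only, against 1.31%. The stiff-only sites were ZEB1 site 2 and ZEB2 sites 13 and 14. The soft-only sites were SNAI1 site 5, at -6.26 kb from the start, with fold enrichments of 3.76 and 6.03, and TWIST1 site 3, near the 3′ end of the long variant, with 5.09 and 4.48. ZEB2 site 13 was the single site found in all 4 stiff and no soft libraries, against 0.85% of all sites, and 0 sites had the opposite pattern, against 0.0172%. The counts of members were thus small and their shares near those of all sites for the stiff-only patterns.

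Between days, 5 sites on soft had peaks on day 4 only, against 5.79% of all sites, namely SNAI1 site 5, TWIST1 site 3, ZEB2 sites 1 and 12, and PRRX1 site 2. ZEB1 site 3, in an intron 94.3 kb past the start, was the 1 site found on day 2 only, against 0.403%, with percentiles of 8.4 and 24.5. On the stiff matrix, 5 sites were found on day 4 only, against 5.35%: TWIST2 site 1, ZEB1 site 2, ZEB2 sites 9 and 14, and the promoter of PRRX1 (site 3). None were found on day 2 only, against 1.41%. These counts rested on single libraries. Without D2 soft replicate 2, which leaves D2 soft with its least deep library, the day 2 stiff-only sites numbered 19 of 54 (35.2%), against 29.7% of all sites, and the soft day 4-only sites 20 of 54, against 26.0%. Without D2 soft replicate 1, 5 sites of 54 (9.26%) were soft-only on day 2, against 4.7% of all sites.

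A peak in all 8 libraries was found at 15 sites (27.3%), against 32.1% of all sites. The 15 were SNAI1 sites 1, 2 and 12, SNAI2 sites 1 and 2, TWIST1 site 1, TWIST2 sites 2 to 7, ZEB2 sites 2 and 3, and PRRX1 site 4. Without D2 soft replicate 1, 27 of 54 sites had a peak in each remaining library, against 47.3% of all sites. Peak strength at such sites was compared on the within-library ranks of fold enrichment among these sites, so that list length does not enter, turned into normal scores and fitted with limma over all 24246 such sites in the genome.

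None of the 15 sites passed an adjusted p of 0.05 in any of the 6 comparisons. Stiff against soft, 0 of 15 member sites were called on day 2, day 4 and over both days, against 0.00412%, 0.00825% and 0.00825% of all sites. Day 4 against day 2, 0 were called on the soft matrix, on the stiff matrix and for the interaction of stiffness and day, against 0% of all sites in each. At an unadjusted p under 0.05 in the limma fit there were 2 member sites on day 2, 0 on day 4, 2 over both days, 1 between days on soft, 2 between days on stiff and 1 for the interaction. The shares of all 24246 sites at that level were 7.65%, 5.35%, 7.72%, 7.07%, 5.04% and 5.27% in the same order. With ranks of the −log10 p in place of fold enrichment, 0 were called as well. The median difference over the 15 sites was -0.11 on day 2 and 0.04 on day 4, on the scale of normal scores, against -0.02 and -0.02 over all sites tested.

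The 2 sites with the lowest p in each comparison are given with their SE. At PRRX1 site 4 the stiff minus soft difference was -0.97 ± 0.34 over both days (limma adjusted p = 0.524) and -1.11 ± 0.49 on day 2 (limma adjusted p = 0.594), with all soft libraries above the stiff libraries of the same day. SNAI1 site 1, at the promoter of RNF114, had a difference of 0.92 ± 0.36 over both days (limma adjusted p = 0.582) and 1.03 ± 0.51 on day 4 (limma adjusted p = 0.921). Its percentiles were 5.56 and 41.7 on soft and 61.4 and 43.9 on stiff on day 2. They were 35.3 and 28.7 on soft and 51.1 and 78.4 on stiff on day 4. By percentile every stiff library was above both soft libraries of its day. By rank, counted from the strongest peak, D2 stiff replicate 2, at 35721, stood below both D2 soft libraries, at 28133 and 32499. On day 4 the order was the same by rank. At SNAI1 site 12 day 4 minus day 2 was -1.03 ± 0.48 on stiff (limma adjusted p = 0.926) and -0.55 ± 0.48 on soft (limma adjusted p = 0.839).

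TWIST1 site 1, in the HDAC9 intron, differed in opposite directions on the 2 days. Its fold enrichments were 5.65 and 7.02 on soft and 5.06 and 3.49 on stiff on day 2, and 4.49 and 3.84 on soft and 5.49 and 8.67 on stiff on day 4, with 4 to 13 fragments at the summit. Both D2 soft libraries were above both D2 stiff libraries, and both D4 stiff libraries above both D4 soft libraries. On the scale of normal scores the stiff minus soft difference was -1.69 ± 0.52 on day 2 (limma adjusted p = 0.485) and 1.06 ± 0.52 on day 4 (limma adjusted p = 0.921), with an interaction of 2.75 ± 0.73 (limma adjusted p = 0.804). Day 4 minus day 2 was -1.59 ± 0.52 on soft (limma adjusted p = 0.594) and 1.16 ± 0.52 on stiff (limma adjusted p = 0.926). TWIST2 site 6 had the second lowest p for the interaction, at -0.56 ± 0.72 (limma adjusted p = 0.968).

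**Figure D5:**
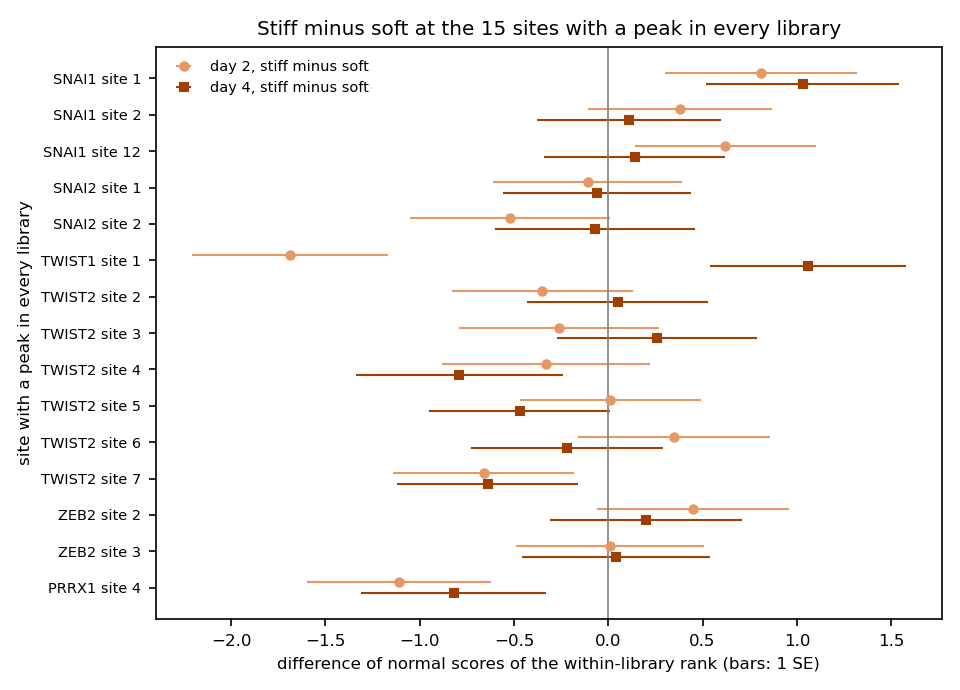
Stiff minus soft difference of normal scores of the within-library rank of fold enrichment (horizontal axis, bars 1 SE from limma) on day 2 and day 4 at the 15 sites found in every library. TWIST1 site 1 lies at -1.69 on day 2 and 1.06 on day 4, PRRX1 site 4 is below 0 on both days, and none of the differences passed an adjusted p of 0.05.

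With all 75501 sites fitted and a missing peak set to the lowest rank, member sites passed the threshold. These were 1 on day 2 (ZEB2 site 13), 4 on day 4 (ZEB2 sites 13 and 14, higher on stiff, and SNAI1 site 5 and TWIST1 site 3, lower) and the same 4 sites over both days. SNAI1 site 5 and TWIST1 site 3 passed between days on soft, ZEB2 site 14 between days on stiff, and SNAI1 site 5, TWIST1 site 3 and ZEB2 site 14 for the interaction. Of all sites this fit called 3.4%, 3.45%, 5.71%, 2.94%, 3.08% and 4.97% in the same order of comparisons, against 1.82%, 7.27%, 7.27%, 3.64%, 1.82% and 5.45% of the 55. In this setting presence or absence of a peak sets the score, so these are the sites with a group pattern described above. SNAI1 site 5, TWIST1 site 3 and ZEB2 site 14 met the rule of at least 2 libraries only through the group where they were high. ZEB2 site 13 met it through stiff libraries alone. Their passes are therefore no test of a difference between groups, and the part of depth was not tested here either.

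Other genes of the transition were described by their promoters. Of the E-proteins that pair with TWIST factors, TCF4 and TCF12 had a promoter peak in every library and TCF3 in 7, with mean percentiles of 84.7, 62.4 and 66.8, all above those of the 7 genes. Of the ID proteins, which sequester E-proteins, ID1 had one in every library, ID2 and ID3 in 7 and ID4 in 2. The co-repressors CTBP1, CTBP2, KDM1A, HDAC1 and HDAC2 had one in every library and RCOR1 in 7, and KDM1A, the histone demethylase recruited by SNAI1, had the highest mean percentile of them, 89.1. Among close relatives, SNAI3 had a promoter peak in 7 libraries and PRRX2 in none.

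Of 7 guardians of the epithelial state, ESRP1, GRHL2, OVOL1 and the miR-200c host gene MIR200CHG had no promoter peak in any library, OVOL2 had one in 1 library and ELF3 in 7. ESRP2, a splicing factor of epithelial cells, had one in every library with a mean percentile of 84.9. Of 12 epithelial targets, CLDN1 and KRT8 had a promoter peak in every library and CRB3 and KRT19 in none. The other 8 had one in some, from 1 library (CLDN3 and CLDN7) to 7 (OCLN, DSP and KRT18). CDH1, which SNAI and ZEB factors repress, had one in 2 soft and 3 stiff libraries, at percentiles of 15.2 to 65.7. Of 10 mesenchymal targets, CDH2, VIM, FN1, SPARC, COL1A1 and TNC had one in every library and the other 4 in some, with COL3A1 in 2 and MMP2 in 3. The median of the mean percentiles was 49.6 for epithelial and 52.8 for mesenchymal targets with a promoter peak. For comparison, 7 of 9 AP-1 genes and 1 of 3 RUNX genes had a promoter peak in every library, with median percentiles of 34.7 and 30.1 against 25.2 for the 7 genes.

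The sequences within 100 bp of the summits were searched on both strands for the motifs named above. TGANTCA was found at 23 of 55 sites (41.8%), against 38.9% of all sites, and at 48.7% of the distal sites, against 47.1% of all distal sites. It lay in both strong TWIST2 sites, in PRRX1 site 4 and in ZEB2 site 13, and not in ZEB1 site 4. CACCTG, the E-box of SNAI and ZEB factors and one form of CANNTG, was found at 5 sites (9.09%), against 9.11%. GGGCGG was found at 53.8% of the 13 promoter sites, against 42.4% of all promoter sites, and TAATTA at 0 of 55, against 3.2%. TWIST1 site 1 held 3 CANNTG matches in its printed sequence and no TGANTCA. A match is a description of the letters, not of binding.

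Over the 8 libraries, the protein-coding gene with the promoter percentiles nearest to those of each member was CCND2 for SNAI1, IQGAP3 for SNAI2, FTL for TWIST1, ZNF101 for TWIST2, KIRREL1 for ZEB1, AC127496.1 for ZEB2 and NTF4 for PRRX1. The mean absolute differences, with a missing peak counted as 0, were 3.88, 4.52, 9.72, 4.41, 2.88, 3.09 and 1.54 percentile points in that order. TWIST1 had the least close match of the 7.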

How the data were processed

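The 7 genes, gene lists and tests were chosen with earlier results of these data known. Per the labels' processing notes and the study's methods, reads were trimmed with Trim Galore and mapped to hg19 with Bowtie2 2.4.1, and MACS2 called peaks at a q-value threshold of 0.05. Each library has its own list. bedtools 2.24.0 and Picard are also named there, without their role. The lists deposited by the authors give fold enrichment as a ratio, −log10 p and −log10 q values, and the other deposited column used, the summit offset. No peak lay beyond a GRCh37 chromosome end. Genes and starts came from GENCODE release 44 mapped to GRCh37.

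The whole-number pileup behind each peak was recovered from the deposited fold and −log10 p for 100% of peaks, within a tolerance of 0.001. Depth was the lowest background divided by the shortest peak. Peaks were merged where they overlapped by at least 1 bp, and the best peak of a site was the one with the highest fold enrichment. Ranks at sites with a peak in every library were fitted with limma 3.58.1 (R 4.3.3) with 4 group means and Benjamini-Hochberg adjustment over 24246 sites, after a test on simulated data. The authors' DiffBind comparison needs reads and was not run. Other steps used Python 3.11.15 with pandas 2.3.3.

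For each gene the sites named were its promoter sites, the distal site with the highest mean percentile among those in the most libraries and the sites with a group pattern. Across genes the 2 sites with the lowest p in each comparison were named. Each library was left out in turn. Alternatives were lists of the same length, −log10 q of at least 3, another overlap, 20 kb windows, promoters of 500 bp and 2 kb, a peak in at least 1 library, ranks of −log10 p, all sites, a replicate block, whose values stand with the other alternatives, and the 2 groups alone. Some sequences and 1 marker gene are not reported here.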

Additional observations from a re-analysis of the deposited data

Results flagged for a closer look

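Among 48 sets of 4 libraries of 1 matrix, 6 held a library far from the other 3. By chance the rule flags about 1 in 20 sets of continuous values. In whole-number counts a single peak can set it off, and the sets share libraries, so the 6 cannot be weighed against that rate. In the soft libraries D2 soft replicate 1 stood apart with 3 peaks in the SNAI1 window (11 to 12 in the others), with 1 peak in the ZEB1 window (4 in the others) and with a percentile of 32.0 at SNAI1 site 2 (59.2 to 64.8 in the others). By rank this site was at 20258 in that library and at 22773, 24866 and 19848 in the other soft libraries, so by rank it did not stand apart. Its fold enrichment was lower in that library, at 5.23, against 8.4, 8.11 and 7.98 in the other soft libraries. It had 9 fragments at the summit there, against 21, 21 and 22. This library is also the least deep, at 0.78 fragments per kb, and the part of depth was not tested. D4 soft replicate 2 had 3 peaks in the SNAI2 window, against 2 in the other soft libraries. Among the stiff libraries D4 stiff replicate 2 had 12 peaks in the SNAI1 window, against 11 in the others, and D2 stiff replicate 1 had 4 in the TWIST1 window, against 5. These 3 sets differ by a single peak.

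TWIST1 site 1 was singled out because every stiff library lay below the soft libraries on day 2 and above them on day 4. The interaction was 2.75 ± 0.73 on the scale of normal scores and did not pass adjustment (limma adjusted p = 0.804).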

How the results depend on the processing

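In lists of 29789 peaks each, 24 member sites remained. Of these, 1 was day 2 stiff-only (4.17%, against 4.06% of all sites) and 1 stiff day 2-only (4.17%, against 2.59%). Both counts were of ZEB2 site 16. Soft day 4-only sites numbered 2 (8.33%, against 3.16%), SNAI1 site 11 and ZEB2 site 16. Day 4 soft-only sites also numbered 2 (8.33%, against 2.81%), PRRX1 site 4 and ZEB2 site 16. None of the sites just named had a group pattern in the full lists, and none of the sites with these patterns there kept them. There were 0 for day 4 stiff-only, against 3.0%, and 0 for all stiff and no soft, against 0.279%. There were 0 for soft day 2-only, against 2.7%, and 0 for stiff day 4-only, against 2.75%. A peak in every library was found at 7 sites (29.2%), against 39.7%. In this setting 0 promoters were in every library, and the mean difference in peaks, stiff minus soft, turned to -1.5. At −log10 q of at least 3, 53 member sites remained. Of these, 1 was day 4 soft-only (1.89%, against 1.01% of all sites) and 0 were soft day 2-only, against 0.26%, and 1 promoter was in every library. With peaks merged only where they overlapped by at least 0.5 of the shorter, there were 56 member sites. Day 4 stiff-only sites numbered 5 (8.93%, against 6.64% of all sites). Day 4 soft-only sites numbered 1 (1.79%, against 1.28%) and soft day 2-only sites 2 (3.57%, against 0.394%). In 20 kb windows they numbered 3 for soft day 4-only and 7 in every library. With a peak in at least 1 library, they numbered 9 and 6 for day 2 stiff-only and soft-only, 7 and 4 for day 4 stiff-only and soft-only, 5 and 4 for all stiff and all soft, 9 and 3 for soft day 4-only and day 2-only, and 1 for stiff day 2-only. For the 20 kb windows and for a peak in at least 1 library, shares of all sites are not given. Those counts are therefore not read as results about the members.

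With all sites in the limma fit, member sites called numbered 1 on day 2, 4 on day 4, 4 over both days, 2 between days on soft, 1 on stiff and 3 for the interaction. As described above, these calls follow from which libraries had a peak. Ranks of −log10 p, the compared groups alone, each library left out and a replicate block gave 0 in each comparison they could be run for. Where a library was left out, the lone library of its group was assumed to vary like the other groups. The replicate block is given once, since the numbers did not pair the samples (correlations -0.0414 to 0.0837). These are the numbers of the labels. The authors' peak names carry other numbers in 3 of the 4 groups, and those were not tested.

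Leaving out each library gave 5 to 19 sites for day 2 stiff-only (19 without D2 soft replicate 2), 0 to 5 for day 2 soft-only (5 without D2 soft replicate 1), 3 to 6 for day 4 stiff-only (6 without either D4 soft library), 0 to 3 for day 4 soft-only (0 without D4 soft replicate 1), 1 to 2 for all stiff and no soft, 0 for all soft and no stiff, 3 to 20 for soft day 4-only (20 without D2 soft replicate 2), 1 to 3 for soft day 2-only, 4 to 7 for stiff day 4-only, 0 to 2 for stiff day 2-only, 14 to 27 in every library and 3 to 5 promoters in every library (27 and 5 without D2 soft replicate 1), and 2.33 to 12.3 for the mean difference in peaks. The cause was not tested, and these counts stand without shares of all sites except where given above. With promoters of 500 bp or 2 kb, 3 promoters were in every library as well.

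A missing peak means only that none passed the threshold in that library, 15 of 55 sites could be compared by strength in all libraries, and fold enrichment in a peak list carries no reads outside peaks.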
